A study of Mus musculus with 4 samples.

Results

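The genes described here are 10 regulators of DNA methylation and of Polycomb and Trithorax chromatin that are known in blood stem cells, taken by symbol from the 31053 genes of the count tables. They are the DNA methyltransferases Dnmt1, Dnmt3a and Dnmt3b, the methylcytosine oxidases Tet1, Tet2 and Tet3, the Polycomb genes Ezh2, Bmi1 and Asxl1, and the Trithorax gene Kmt2a. All 10 had at least 100 unique molecular identifiers (UMIs, the molecule tags that droplet sequencing counts), as did 12074 genes in all. The levels are compared in KLS cells, the lineage-negative, c-Kit-positive, Sca-1-positive fraction of mouse bone marrow that holds the blood stem and multipotent progenitor cells. The control library came from Vav1-Cre/+ mice. The knockout library came from mice that carry Vav1-Cre/+ together with STAT5abflox/flox, so that both groups carry the Cre driver. Vav1-Cre is active across the blood lineage and not only in stem cells. Per the labels the mice were 8 to 12 weeks old, 4 mice are stated, and their cells were not labelled by mouse. There was 1 library per genotype, so no difference between the genotypes was tested against replicate error, and every interval below is a 95% counting interval that leaves out the variation between mice and preparations. Genotype and library cannot be told apart.

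DNA methylation is written by enzymes with distinct parts. Dnmt1 copies the pattern onto the new strand behind the replication fork, with Uhrf1 bringing it to hemimethylated sites, while Dnmt3a and Dnmt3b place methyl groups on unmethylated DNA. The TET enzymes oxidise methylcytosine and so start its removal. Ezh2 is the catalytic subunit of Polycomb repressive complex PRC2, Bmi1 is a core subunit of PRC1, and Asxl1 is the partner of the deubiquitinase that removes the PRC1 mark. Kmt2a (MLL) methylates histone H3 at active promoters and keeps Hox genes on in stem cells. Dnmt3a, Tet2 and Asxl1 are the genes most often mutated in clonal blood formation with age, and loss of Dnmt3a, Tet2 or Bmi1 changes stem cell self-renewal in mice.

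Ezh2 and Dnmt1 were the members with the largest S phase differences below. A promoter of each held letters that were not found at the other members, and a link of these letters to the S phase differences was not tested. The RefSeq promoters (GRCm38.p6, 250 bases before to 50 bases after each start) were searched on both strands for the E2F letters TTTGGCGC, TTTCCCGC, TTTCGCGC and TTTGCCGC, which belong to a factor family known for S phase genes. A match was present in 2.26% of 32851 promoters. All 10 members had at least 1 promoter in the table, 14 promoters in all, and only Ezh2 and 1 of the Dnmt1 promoters held a match. Of the 65 related genes of the wider list below, 50 had a promoter in the table, 75 promoters in all, and 4 genes held a match in 1 promoter each: Uhrf1 (in 1 of its 2 promoters), Hells, a remodeller needed for DNA methylation, Phf19 and Suz12. The windows of Ezh2 and Dnmt1 are shown with those of Uhrf1 and Hells, which were picked for the largest S phase differences of the wider list, so their matches are no separate evidence of a link between these letters and S phase. Each is 30 bases on the gene's strand, with the matched letters in capitals, and positions count from the RefSeq start as base 1.

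Ezh2, chr6:47595009-47595038, minus strand, match from position 4: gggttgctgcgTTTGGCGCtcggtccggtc

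Dnmt1, chr9:20952824-20952853, minus strand, match from position -219: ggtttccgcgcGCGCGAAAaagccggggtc

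Dnmt1, chr9:20952574-20952603, minus strand, match from position 34: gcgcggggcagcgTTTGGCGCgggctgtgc

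Uhrf1, chr17:56304117-56304146, plus strand, match from position -185: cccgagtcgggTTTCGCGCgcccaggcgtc

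Hells, chr19:38930917-38930946, plus strand, match from position -62: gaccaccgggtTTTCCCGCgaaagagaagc

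A match is a description of letters and not a measured binding site. The letters TTCNNNGAA, the core that STAT factors bind, read the same on both strands and were found in 8.30% of all promoters and in 0 of the 14 member promoters. CpG dinucleotides, the substrate of the methyltransferases, numbered from 2 in 1 of the Dnmt1 promoters to 57 in the Tet2 promoter, and 13 of the 14 member promoters lay above the median of 7 CpG over all promoters. In GENCODE M21 (GRCm38) Ezh2 spans chr6:47530139-47595341, Dnmt1 spans chr9:20907209-20959888 and Kmt2a spans chr9:44803355-44881296, all on the minus strand. Asxl1 (chr2:153345829-153404007) and Dnmt3b (chr2:153649450-153687730) are neighbours on the plus strand, 245 kb apart. Dnmt3a, Dnmt3b, Tet2, Ezh2 and Kmt2a each overlap 1 counted gene on the opposite strand, and the strand rule of the counting is not given in the sources used here, so reads of such pairs may not be fully separated. Coordinates of the other members are chr12:3806007-3914443 for Dnmt3a, chr10:62804570-62908996 for Tet1, chr3:133463679-133545139 for Tet2, chr6:83362373-83459084 for Tet3 and chr2:18677018-18686629 for Bmi1.

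The control KLS library held 3747 barcodes and 55138419 UMIs, of which 3085 cells were kept at a median of 15136 UMIs. The knockout library held 7511 barcodes and 82466835 UMIs, with 6726 cells kept at a median of 10085 UMIs. The study's text counts 10008 sorted KLS cells, beside 11258 barcodes in the files and 9811 cells kept here. Some barcodes were shared with another library, 393 of the control and 295 of the knockout, and the 388 and 281 that held more UMIs in the other library were left out. Levels are given as CPM, the summed UMIs of a gene per 1000000 UMIs of the same cells. Stat5a stood at 68.5 CPM in control and 6.7 CPM in knockout cells and Stat5b at 60.8 and 4.5 CPM, which goes with the labels. The gap was smaller among the 285 knockout cells with stem cell markers described below, with a log2 ratio of -1.73 for Stat5a and -2.19 for Stat5b, against -5.68 and -5.89 in lymphoid-primed cells. The blood markers Ptprc, Kit and Ly6a were present in both libraries at 48.8 CPM or more each, and 5 stromal genes summed to 1.21 CPM in control and 1.57 CPM in knockout cells. Jchain, a plasma cell gene, stood at 8.82 and 22.8 CPM, and its part in the results was not tested.

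Each cell was placed in 1 of 3 cycling states from S phase and G2/M gene lists that hold none of the members. The lists are those of the Seurat software in mouse symbols, without Uhrf1 and Hells, which belong to the wider list below. A cell was G2/M-high at or over 11039.8 CPM of the 54 G2/M genes, S-high at or over 4690.4 CPM of the 41 S genes and not G2/M-high, and low otherwise, the cuts being the upper tertiles over both libraries. The knockout library held fewer low cells, 35.7% against 48.8% in control, and more S-high (28.0% against 24.2%) and G2/M-high cells (36.2% against 27.0%). These classes are ranges of a score: 221 control and 800 knockout cells lay within 10% of the S cut, and 141 and 515 within 10% of the G2/M cut. Median depth followed the state, from 9348 UMIs in low to 21146 UMIs in G2/M-high control cells and from 6512 to 13460 UMIs in the knockout cells.

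Dnmt1 and Ezh2 were the members that followed the cell cycle most. In control cells Dnmt1 stood at 107.9 CPM in low, 273.9 CPM in S-high and 189.3 CPM in G2/M-high cells. In knockout cells the levels were 151.2, 301.4 and 216.9 CPM. In both libraries the maintenance methyltransferase was therefore highest in S-high and lowest in low cells. Its log2 ratio of S-high to low cells was 1.34 (1.26 to 1.42) in control and 0.99 (0.93 to 1.06) in the knockout library. Ezh2 stood at 95.1, 242.1 and 236.9 CPM in low, S-high and G2/M-high control cells. The knockout values were 122.3, 247.8 and 250.3 CPM. Unlike Dnmt1, the PRC2 methyltransferase was about as high in G2/M-high as in S-high cells. Its ratio of S-high to low cells was 1.35 (1.26 to 1.43) in control and 1.02 (0.95 to 1.09) in knockout cells.

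Kmt2a, Tet1 and Tet2 had the opposite order, with their lowest level in S-high cells in both libraries. Kmt2a stood at 155.4 CPM in low, 105.4 CPM in S-high and 147.5 CPM in G2/M-high control cells, and at 169.1, 124.6 and 169.8 CPM in knockout cells. The dip in S-high cells was therefore recovered in G2/M-high cells. The log2 ratio of S-high to low cells was -0.56 (-0.65 to -0.47) in control and -0.44 (-0.51 to -0.37) in the knockout library. Tet1 stood at 51.3, 32.1 and 41.6 CPM in control and at 52.3, 36.1 and 43.2 CPM in knockout cells, with log2 ratios of S-high to low of -0.68 (-0.84 to -0.51) and -0.53 (-0.67 to -0.40). Tet2 stood at 28.6, 17.3 and 25.4 CPM in control and at 27.2, 20.1 and 30.3 CPM in knockout cells, with ratios of -0.72 (-0.95 to -0.50) and -0.43 (-0.62 to -0.25). Each of these genes thus had a share of the transcriptome in S-high cells below that in the other states.

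The remaining members differed less with S phase. Dnmt3a was lowest in G2/M-high cells, at 55.1 CPM against 80.0 CPM in low control cells and at 61.7 against 85.2 CPM in knockout cells. Asxl1 was highest in G2/M-high cells, at 65.1 CPM against 42.2 CPM in low control cells and at 66.9 against 44.7 CPM in knockout cells. The log2 ratio of G2/M-high to low cells was -0.54 (-0.65 to -0.42) and -0.47 (-0.56 to -0.37) for Dnmt3a, and 0.63 (0.49 to 0.76) and 0.58 (0.47 to 0.70) for Asxl1, control first. So the de novo methyltransferase and the deubiquitinase partner differed in opposite directions at G2/M. Dnmt3b stayed between 64.4 and 65.6 CPM over the 3 control states and between 56.6 and 60.2 CPM in the knockout library. Tet3 ranged from 64.9 to 72.4 CPM in control and from 69.2 to 73.6 CPM in knockout cells, and Bmi1 from 30.8 to 35.7 CPM and from 32.6 to 34.8 CPM.

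**Figure D1:**
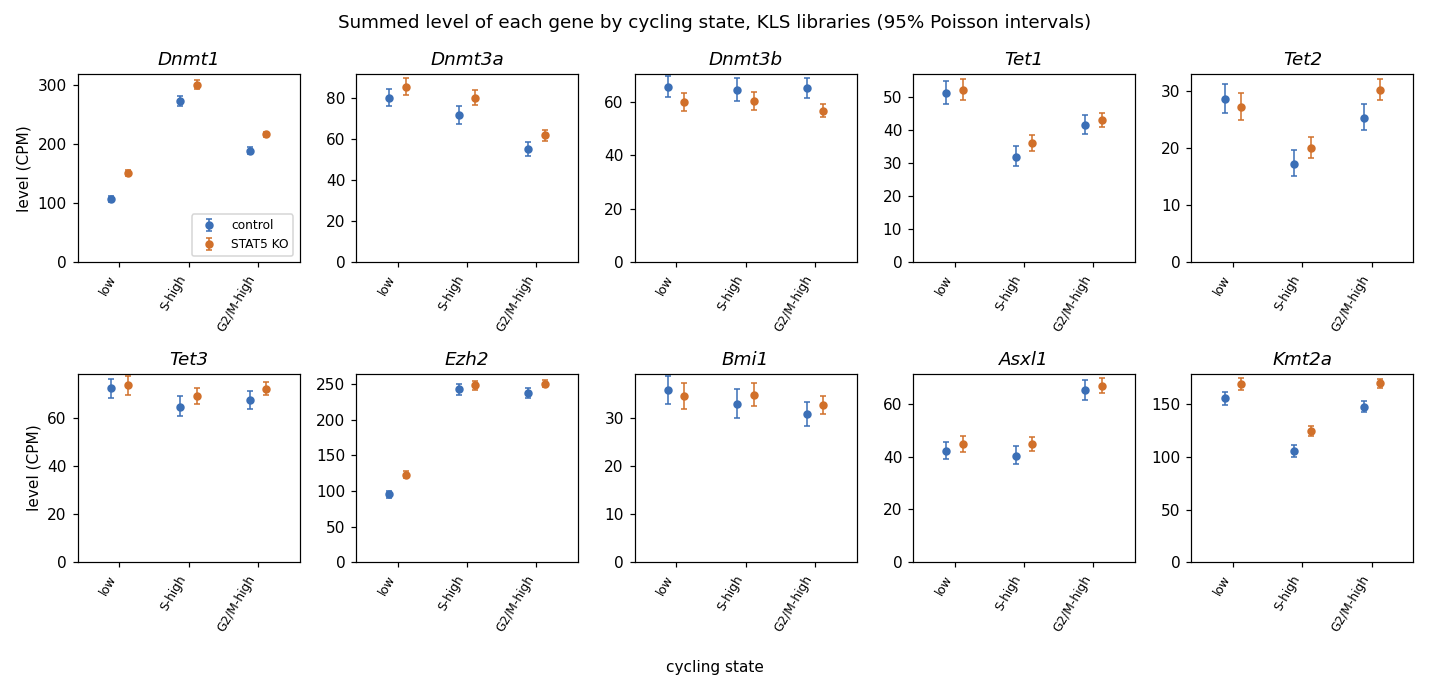
Level of each of the 10 genes in CPM (y axis, from 0) in low, S-high and G2/M-high KLS cells (x axis), control in blue and STAT5 knockout in orange, with 95% Poisson intervals. Dnmt1 peaks in S-high cells, Ezh2 is high in S-high and G2/M-high cells, Asxl1 is highest in G2/M-high cells, and Kmt2a, Tet1 and Tet2 are lowest in S-high cells.

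With 1 library per group, a gene is counted as past the fold when its level in the first set of cells is at least 25% higher or at least 20% lower than in the second, the same ratio in either direction. From low to S-high cells 2 of the 10 members were past it as higher and 3 as lower in each library. The background was 18.5% of 10587 genes higher and 30.2% lower in control, and 14.9% of 10800 genes higher and 24.4% lower in the knockout library, so the members' counts were near the shares of all genes. Their median log2 ratio was -0.14 in control and -0.05 in the knockout library, beside -0.10 and -0.07 over all genes. From low to G2/M-high cells 3 members (Ezh2, Dnmt1, Asxl1) were past the fold as higher and 1 (Dnmt3a) as lower in each library, against 13.3% of all genes higher and 23.3% lower in control and 10.9% and 20.3% in the knockout library.

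The cycling states were also compared within cell classes. The cells were gated by markers that are not members into lymphoid-primed (Dntt), megakaryocyte-primed (Pf4), erythroid-primed (Klf1 with Gata1) and myeloid cells (Mpo, Elane, Prtn3 and Ctsg), cells of none of these with Hlf, Mecom and Procr UMIs, called stem triad cells here, and an ungated rest. Dnmt1 was higher in S-high than in low cells in 6 of 6 gates of each library. The erythroid-primed gate of the knockout library was nearly level, at 202.2 CPM in low and 202.3 CPM in S-high cells. Ezh2 was higher in 5 of 6 control and 6 of 6 knockout gates, with intervals that held 0 in the erythroid-primed gate of both libraries. Kmt2a was lower in S-high cells in 6 of 6 gates of each library. Its megakaryocyte-primed knockout cells were nearly level, at 150.9 and 150.2 CPM. Its intervals excluded 0 in the stem triad, ungated and lymphoid-primed gates of both libraries and in the myeloid gate of the knockout library. Tet1 did not keep its order everywhere: it was higher in S-high cells in 1 gate of each library, at 41.5 and 63.4 CPM in megakaryocyte-primed control cells and at 50.7 and 71.5 CPM in stem triad knockout cells, both with intervals that held 0. Among stem triad cells Dnmt1 went from 96.5 CPM in low to 257.5 CPM in S-high control cells and from 92.4 to 280.5 CPM in knockout cells. Ezh2 went from 84.5 to 212.5 CPM and from 69.3 to 231.6 CPM in the same cells.

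Cells were also cut into 5 equal bins of the S list level, pooled over both libraries, which compares the genotypes at like S phase activity (median 1024 CPM of S genes in control and 1025 CPM in knockout cells in the lowest bin). From the lowest to the highest bin Dnmt1 went from 61.8 to 298.6 CPM in control and from 80.5 to 327.9 CPM in knockout cells. Ezh2 went from 97.5 to 268.7 CPM and from 111.0 to 271.5 CPM. Both were higher in each bin than in the one before it in both libraries. Kmt2a went from 182.8 to 106.6 CPM in control and from 219.7 to 133.2 CPM in knockout cells. Tet1 went from 50.4 to 28.2 CPM and from 58.8 to 38.1 CPM, so that both genes were lower in the highest bin. The bins share the list and the depth of each cell with the states above, so they add detail and no separate evidence.

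**Figure D2:**
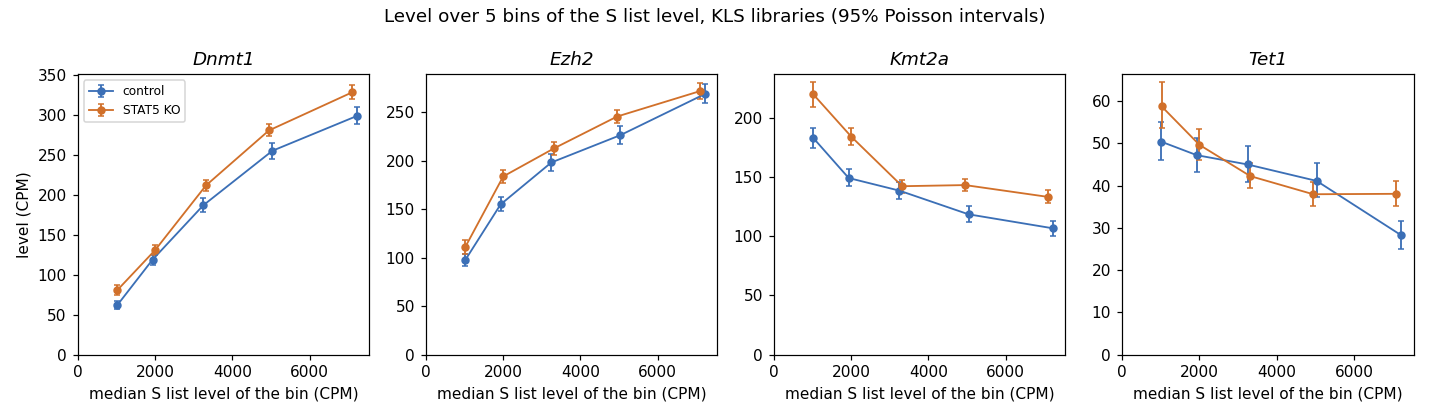
Level of Dnmt1, Ezh2, Kmt2a and Tet1 in CPM (y axis, from 0) over 5 bins of KLS cells ordered by their S list level (x axis, median CPM of the bin), control in blue and STAT5 knockout in orange, with 95% Poisson intervals. Dnmt1 and Ezh2 climb with the S list level, Kmt2a and Tet1 decline, and the knockout line of Dnmt1 lies above the control line in all 5 bins.

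Lineage gates differed in cell number. The stem triad gate held 404 control cells (13.1%) and 285 knockout cells (4.24%), and the myeloid gate 233 (7.55%) and 1137 (16.9%). The stem triad rule needs a UMI of each of 3 genes, so its share of cells depends on depth. Control cells were deeper, at a median of 15136 against 10085 UMIs, and the part of depth in this gap was not tested. The lymphoid-primed gate held 920 and 2004 cells, 29.8% of each library, the megakaryocyte-primed gate 57 and 180, the erythroid-primed gate 66 and 127, and the ungated rest 1331 and 2505. Another 74 and 488 cells met more than 1 gate and were left out of them. Of 6 check markers not used for gating, 5 or 6 were highest in their own gate for the lymphoid, megakaryocyte, erythroid and myeloid gates in each library. The myeloid marker Fcnb (0.04 and 0.03 CPM over all cells) and the lymphoid marker Cd79a (0.72 and 0.25 CPM) were near the floor and check little. For the stem triad only 2 of 6 in control (Mllt3, Fgd5) and 3 of 6 in the knockout library were, with Meis1 and Hoxa9 among those higher elsewhere, so these cells are named by their rule and not as stem cells.

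Kmt2a was highest in stem triad cells, at 186.6 CPM in control and 205.4 CPM in the knockout library. It was lowest in erythroid-primed cells, at 92.6 and 116.1 CPM. Stem triad and ungated cells, its first 2 gates in both libraries, had intervals that did not overlap. The highest gate stood 1.01 (0.78 to 1.24) above the lowest in control and 0.82 (0.62 to 1.03) in knockout cells on the log2 scale. Among low cells alone Kmt2a was still higher in stem triad than in lymphoid-primed cells, at 192.4 against 148.7 CPM in control and 221.3 against 158.1 CPM in knockout cells. It was also higher there than in myeloid cells, at 113.0 and 135.4 CPM. In S-high cells stem triad cells were highest in control, at 137.8 CPM against 118.5 CPM in ungated cells. In the knockout library they stood at 133.7 CPM, below ungated (142.6 CPM) and megakaryocyte-primed cells (150.2 CPM). The intervals of these levels overlapped within each library, so no difference in order is read from them. The stem triad S-high cells numbered 55 in control and 38 in the knockout library.

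The de novo methyltransferases and Tet1 were low in erythroid-primed cells. Tet1 stood at 52.3 CPM in stem triad and 20.0 CPM in erythroid-primed control cells, and at 55.0 and 15.7 CPM in the knockout library, a difference of -1.39 (-1.91 to -0.91) and -1.81 (-2.35 to -1.31) on the log2 scale. Dnmt3b stood at 68.3 and 35.3 CPM in these control gates and at 59.5 and 24.1 CPM in the knockout library, a log2 ratio of -0.95 (-1.34 to -0.58) and -1.30 (-1.75 to -0.88). Dnmt3a stood at 75.6 and 43.0 CPM in control and 84.6 and 41.4 CPM in knockout cells, and its highest gate was megakaryocyte-primed in both libraries, at 79.3 and 99.3 CPM. For all 3 genes the erythroid-primed gate was the lowest in both libraries. Myeloid cells lay between, with Tet1 at 27.4 and 33.3 CPM and Dnmt3a at 56.2 and 63.7 CPM. From stem triad to erythroid-primed cells 2 of the 10 members were past the fold as higher and 6 as lower in control, where 23% and 36.1% of all genes were. In the knockout library 1 was past it as higher and 4 as lower, where 27.8% and 32.8% of genes were.

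Dnmt1 and Ezh2 had their lowest level in the stem triad gate of both libraries. Dnmt1 stood at 152.5 CPM there and at 239.9 CPM in megakaryocyte-primed control cells, and at 177.1 and 252.5 CPM in the knockout library. Ezh2 stood at 156.3 CPM in stem triad control cells against 218.0 CPM in erythroid-primed cells. In the knockout library it stood at 172.7 CPM in stem triad cells against 229.4 CPM in lymphoid-primed cells. Stem triad cells were also the gate with the most low cells, 62.9% in control and 57.9% in the knockout library. Within S-high cells the lowest Dnmt1 level was that of erythroid-primed cells, at 204.8 CPM in control and 202.3 CPM in the knockout library. Stem triad S-high cells stood at 257.5 and 280.5 CPM and megakaryocyte-primed ones, the highest, at 324.4 and 374.6 CPM.

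For Tet3, Bmi1 and Tet2 no 2 neighbours in the order of the 6 gates had intervals that did not overlap, in either library. Tet2 ranged from 11.3 CPM in megakaryocyte-primed to 28.1 CPM in stem triad control cells, 1.31 (0.47 to 2.29) on the log2 scale, and from 21.7 to 27.7 CPM over the knockout gates. Tet3 ranged from 62.3 to 71.3 CPM over the control gates and from 62.7 to 79.6 CPM over the knockout gates. Bmi1 ranged from 23.5 to 38.7 CPM and from 27.7 to 34.7 CPM, lowest in erythroid-primed cells in both libraries. Asxl1 ranged from 42.5 to 57.3 CPM in control and from 48.8 to 62.0 CPM in the knockout library. Its highest gate differed between the libraries. Of its neighbouring gates only ungated and myeloid knockout cells had a log2 ratio between them whose interval excluded 0.

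**Figure D3:**
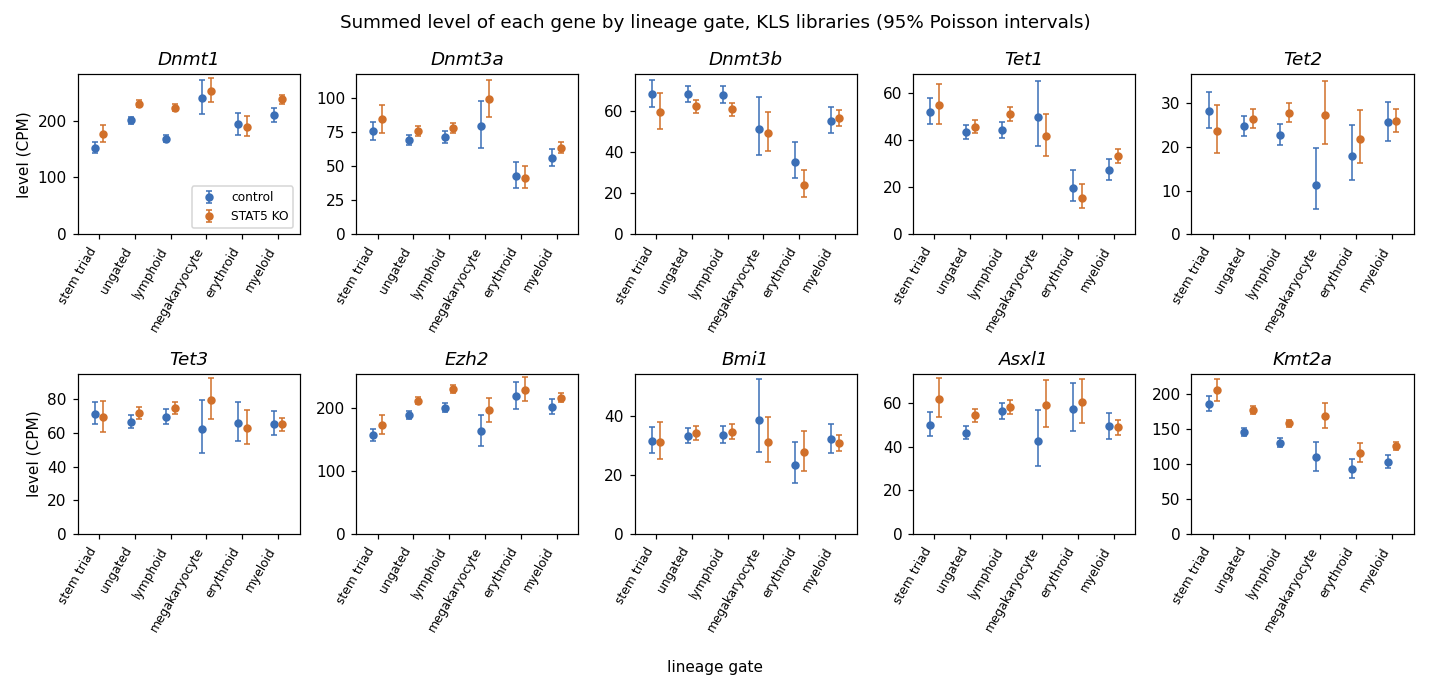
Level of each of the 10 genes in CPM (y axis, from 0) in 6 lineage gates of KLS cells (x axis), control in blue and STAT5 knockout in orange, with 95% Poisson intervals. Kmt2a and Tet1 are highest in stem triad cells, Dnmt3a, Dnmt3b and Tet1 are lowest in erythroid-primed cells, and the megakaryocyte and erythroid gates have the widest intervals.

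Between the genotypes, 9 of the 10 members had a higher level in the knockout library and 1, Dnmt3b, a lower one. None was past the fold, which 7.67% of 12074 genes passed as higher and 13.5% as lower. The median log2 ratio of the members was 0.11, beside -0.01 over all genes, and single values ran from -0.15 to 0.28. Every member thus lay within 25% of its control level.

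Dnmt1 stood at 185.2 CPM in control and 225.4 CPM in knockout cells, a log2 ratio of 0.28 (0.25 to 0.32). Ezh2 stood at 190.1 and 217.7 CPM, a ratio of 0.20 (0.16 to 0.23). These 2 were the largest differences among the members. The knockout library also had more cells with a high S list level, with which both genes were higher, and the part of this in the differences was not tested beyond the following value. When the knockout cells were weighted to the control shares of the 5 S bins (a comparison added once the values were known), the ratios became 0.16 for Dnmt1 and 0.12 for Ezh2. Summing after each cell had been thinned to 5000 UMIs moved them the other way, to 0.40 (0.33 to 0.46) and 0.26 (0.20 to 0.33). Dnmt1 was then past the fold. Thinning gives every cell kept the same weight, but it also leaves out the shallower cells. Low cells went from 2403 to 1880 in the knockout library and from 1506 to 1472 in control. The part of this changed cell mix in the thinned ratios was not tested.

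Within low cells Dnmt1 stood at 107.9 CPM in control and 151.2 CPM in knockout cells, a ratio of 0.49 (0.40 to 0.57), and Ezh2 at 95.1 and 122.3 CPM, a ratio of 0.36 (0.27 to 0.45). These were the 2 members past the fold in low cells, where 10.7% of all genes were past it as higher and 11.6% as lower. In S-high cells the ratios were 0.14 (0.08 to 0.20) for Dnmt1 and 0.03 (-0.03 to 0.10) for Ezh2, and no member was past the fold, where 7.42% of genes were as higher and 8.33% as lower. In G2/M-high cells they were 0.20 (0.14 to 0.25) and 0.08 (0.03 to 0.13), again with no member past the fold (8.97% of genes higher, 10.4% lower). Low cells of the knockout library had a higher median S list level, 2083 CPM against 1502 CPM in control. At like S list level the ratio of Dnmt1 was 0.38 (0.22 to 0.55) in the lowest S bin and 0.14, 0.18, 0.14 and 0.14 in the next 4 bins. That of Ezh2 was 0.19, 0.25, 0.10, 0.12 and 0.01 from the lowest to the highest bin. The bins do not match the libraries for G2/M-high cells, 36.2% of the knockout and 27.0% of the control library. The part of this in the bin ratios was not tested. By gate, Dnmt1 of low cells was higher in knockout than in control lymphoid-primed cells (152.5 against 102.0 CPM) and myeloid cells (187.5 against 134.7 CPM), and it was 92.4 against 96.5 CPM in stem triad cells, where the interval of the log2 ratio ran from -0.38 to 0.24. Ezh2 of low stem triad cells stood at 69.3 CPM in knockout and 84.5 CPM in control cells, with an interval from -0.64 to 0.06.

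Kmt2a stood at 138.5 CPM in control and 156.3 CPM in knockout cells, a ratio of 0.17 (0.13 to 0.22). It was the member whose level was higher in the knockout library most widely, in 6 of 6 gates, in 3 of 3 cycling states and in 17 of 18 combinations of gate and state. In ungated cells it stood at 146.0 and 177.5 CPM and in lymphoid-primed cells at 130.8 and 158.5 CPM, with ratios of 0.28 (0.21 to 0.35) and 0.28 (0.20 to 0.36). Within each of these 2 gates the ratio was thus larger than over all cells. Weighting the knockout cells to the control shares of the gates gave 0.26, the highest ratio over the alternatives of processing. The lowest, 0.13 (0.06 to 0.21), came after thinning each cell, with shallower cells left out.

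Dnmt3b stood at 65.1 CPM in control and 58.5 CPM in knockout cells, a ratio of -0.15 (-0.22 to -0.09). It was lower in the knockout library in 5 of 6 gates and 3 of 3 cycling states, and in 12 of 18 combinations of gate and state. Myeloid cells were the exception, at 55.3 and 56.4 CPM. The difference was not seen at equal depth: thinned to 5000 UMIs per cell, with shallower cells left out, the levels were 61.0 and 60.4 CPM, a ratio of -0.02 (-0.13 to 0.10). The cause of that change was not tested.

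The other de novo enzyme, Dnmt3a, stood at 68.1 and 72.9 CPM, a ratio of 0.10 (0.04 to 0.16), which was 0.02 (-0.09 to 0.12) after thinning and 0.18 when the knockout cells were weighted to the control shares of gate and state together. Tet2 stood at 24.2 and 26.5 CPM (0.13, 0.03 to 0.23), Tet3 at 68.5 and 71.7 CPM (0.07, 0.01 to 0.13) and Tet1 at 42.3 and 43.4 CPM (0.04, -0.04 to 0.12). The 3 oxidase genes thus had ratios on both sides of the members' median. Asxl1 stood at 50.4 and 54.8 CPM (0.12, 0.05 to 0.19), and at a ratio of 0.19 (0.07 to 0.32) after thinning. Bmi1 stood at 33.1 and 33.7 CPM (0.03, -0.06 to 0.12), and its sign changed after thinning (-0.05, -0.21 to 0.10). For Bmi1 and Tet1 a difference was not detectable at this depth.

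Over the 10 members and 6 gates, 43 of 60 log2 ratios of knockout to control were above 0 and 17 below. Over all genes the share above 0 ran from 50.8% in stem triad cells to 57.4% in megakaryocyte-primed cells. The interval lay above 0 for 21 of the 60 member ratios and below 0 for 3, all of Dnmt3b. In lymphoid-primed cells Dnmt1 stood at 168.3 and 222.5 CPM, a ratio of 0.40 (0.33 to 0.47), and it was the 1 member past the fold, where 9.39% of all genes were past it as higher and 9.57% as lower. In megakaryocyte-primed cells 4 of the 9 members with at least 100 UMIs were past the fold as higher, where 17% of genes were as higher and 8.77% as lower. Kmt2a was the largest of these, at 109.5 and 168.7 CPM, a ratio of 0.62 (0.32 to 0.94), and that gate held only 57 control cells. The intervals of the other 3 held 0: Dnmt3a at 0.32 (-0.05 to 0.71), Tet3 at 0.35 (-0.06 to 0.79) and Asxl1 at 0.47 (-0.03 to 1.00). Tet2 in that gate, with too few UMIs to be counted, stood at 11.3 CPM (12 UMIs) and 27.2 CPM (58 UMIs). In erythroid-primed cells Kmt2a was past the fold as higher and Dnmt3b as lower among 8 members measured, against 13.5% and 12.7% of genes. No member was past it in stem triad cells (9.38% of genes higher, 10.2% lower), ungated cells (7.85% and 7.74%) or myeloid cells (12% and 8.54%).

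**Figure D4:**
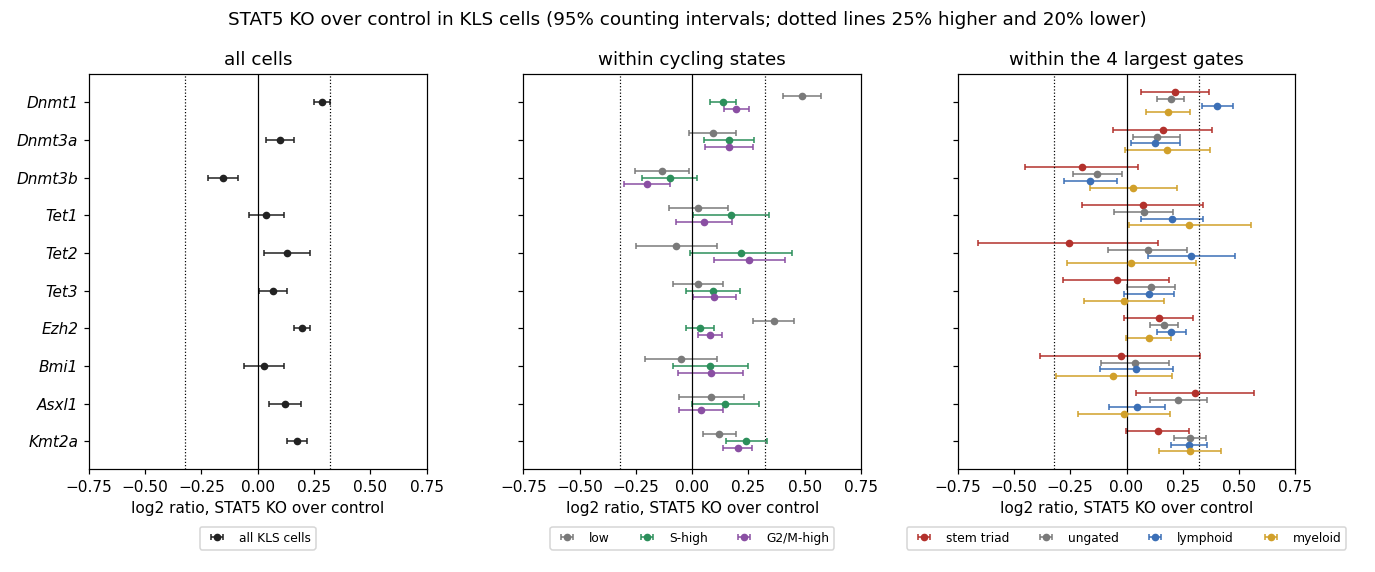
Log2 ratio of the level in STAT5 knockout to control KLS cells (x axis) for each of the 10 genes (rows), over all cells, within 3 cycling states and within the 4 largest gates, with 95% counting intervals and dotted lines at 25% higher and 20% lower. Dnmt3b lies below 0 and the other 9 genes above 0 over all cells, and Dnmt1 and Ezh2 pass the dotted line in low cells, Dnmt1 also in lymphoid-primed cells.

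Shares of cells with a UMI were compared after each cell had been thinned to 5000 UMIs, which left out 41 control and 905 knockout cells. Dnmt1 was seen in 50.3% of control and 60.8% of knockout cells, and Ezh2 in 52.1% and 60.3%. Kmt2a was seen in 49.8% and 53.0% and Asxl1 in 20.5% and 23.0%. The shares of Tet3 (27.6% and 29.3%), Dnmt3a (30.4% and 31.5%), Dnmt3b (25.7% and 25.5%), Tet1 (19.7% and 19.9%), Tet2 (11.5% and 12.1%) and Bmi1 (15.8% and 14.9%) differed by less than 2 points. Unthinned, Dnmt3b was seen in 58.2% of control and 44.3% of knockout cells and Kmt2a in 82.1% and 74.7%, so the order of Kmt2a was the reverse of that after thinning. The control cells were the deeper ones. In the stromal sort of the same study, shallower at a median of 3473 UMIs in control, Dnmt1 was seen in 6.26% and Dnmt3b in 3.36% of control cells, but Kmt2a in 27.5%, unthinned. The lower share of the first 2 genes in stromal cells goes with a lower level there, 18.7 CPM for Dnmt1 and 11.2 CPM for Dnmt3b in control.

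A share of the knockout cells still had a Stat5a or Stat5b UMI, 454 cells or 6.75%, against 79.3% of control cells. Within the knockout library these cells differed from the rest in Ezh2, at 174.6 against 221.2 CPM (-0.34, -0.43 to -0.25), and in Dnmt1, at 205.5 against 227.0 CPM (-0.14, -0.23 to -0.06). Kmt2a was higher in them, at 175.3 against 154.8 CPM (0.18, 0.09 to 0.27), as was Dnmt3a, at 80.9 against 72.3 CPM (0.16, 0.02 to 0.30). More of them were low cells, 48.0% against 34.8%, and the part of this in the differences was not tested. Leaving these cells out kept the median ratio of the members between the libraries at 0.11.

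Some members varied together over the 18 combinations of gate and cycling state. Pearson's r of their levels, a description over values that share libraries and cell depth, was 0.82 in control and 0.80 in the knockout library for Dnmt1 with Ezh2. It was 0.67 and 0.87 for Dnmt3b with Tet1, and 0.68 and 0.76 for Dnmt3a with Tet1. Dnmt1 and Kmt2a went against each other, with r of -0.49 and -0.42. Other pairs were of similar size, such as Dnmt3a with Dnmt3b (0.65 and 0.69) and Tet1 with Kmt2a (0.63 and 0.65). Below 0, Dnmt3a with Asxl1 (-0.41 and -0.43) and Dnmt3a with Ezh2 (-0.36 and -0.42) were near Dnmt1 with Kmt2a, so that opposition was not particular to this pair. Thus the copying enzyme went with Ezh2, and the de novo enzymes went with Tet1 but not with it alone.

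The genes most like each member over the 12 values of gate and library were ranked by the same r among 7286 genes with at least 2000 UMIs. For Dnmt1 they were Dctpp1 (0.947), Galk1 and Pold1, a catalytic subunit of a replicative DNA polymerase. For Ezh2 they were Hnrnpa1 (0.940), Ddx39b and Hmgb1, and for Kmt2a they were Ythdc1 (0.968), Ash1l, another histone methyltransferase, and Pnisr. Dnmt3b was nearest to Nfatc1 (0.991), Elk3 and Mfge8, and Tet1 to Dlg4 (0.988), Lrrfip1 and Plekha2. Dnmt3a was nearest to Arhgap45, Tet2 to Rassf3, Tet3 to Dyrk1a, Bmi1 to Cnot2 and Asxl1 to Aspm, a mitotic spindle gene. These values share libraries and depth, and the small erythroid and megakaryocyte gates weigh in them as much as the large ones.

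A wider list of 65 genes of DNA methylation, PRC1, PRC2, the Polycomb deubiquitinase and Trithorax complexes, without the members, had 63 measured. Between the genotypes 38 were higher and 25 lower in the knockout library, 5 were past the fold as higher and 2 as lower (7.67% and 13.5% of all genes), and the median log2 ratio was 0.05. Over all genes 48.5% were above 0 and 51.5% below. The Trithorax group, to which Kmt2a belongs, had 13 of 14 genes higher, with a median of 0.13, and the PRC1 group had 13 of 20 lower, with a median of -0.07. These groups are given as counts and were not tested. The largest ratios were those of Kmt2d, a histone methyltransferase, at 46.8 and 63.7 CPM (0.44), Pcgf6, a PRC1 subunit, at 19.4 and 26.2 CPM (0.43) and Hells at 82.7 and 107.6 CPM (0.38). The lowest ratios were those of Cbx7, the PRC1 chromodomain subunit, at 13.2 and 9.4 CPM (-0.49), Phf1 at 11.03 and 8.37 CPM (-0.40), and Pcgf2 at 10.2 and 8.2 CPM (-0.31).

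From low to S-high cells the same list had 15 of 63 genes past the fold as higher and 18 as lower in control, where 18.5% and 30.2% of all genes were. In the knockout library it had 16 and 13, where 14.9% and 24.4% of genes were. Uhrf1, the partner of Dnmt1, stood at 39.3 CPM in low and 247.8 CPM in S-high control cells, a log2 ratio of 2.66 (2.54 to 2.78), and at 66.6 and 277.4 CPM in knockout cells, a ratio of 2.06 (1.97 to 2.15). Hells followed with 2.07 and 1.54, and the PRC2 accessory gene Phf19 with 1.90 and 1.46. These 3 went in the direction of Dnmt1 and Ezh2 and further. Uhrf1 and Hells belong to the Seurat S list and were left out of the S list used here. The Seurat list was made of S phase genes, so the higher level of Uhrf1 and Hells in S-high cells is no separate evidence. Phf1, another PRC2 accessory gene, went the other way, with -1.57 in control and -1.44 in the knockout library, as did Idh1 (-1.29 and -1.04) and the histone demethylase Kdm6b (-1.10 and -1.06).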

How the data were processed

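The authors' deposited matrices hold raw counts of UMIs per gene and cell barcode, with no normalization. Per the file headers the software version is 3.1.0, and per the submitters' processing notes Cell Ranger and the builds GRCm38 and mm10 were used. The counting rule for strand and the cell calling are not given in the sources used here. Barcodes under 200 genes or over 10% mitochondrial UMIs were left out. Scrublet scores (scanpy 1.11.5) were used to leave out doublets at 0.8% of barcodes per 1000 barcodes, 112 in control and 451 in the knockout library, because the automatic threshold marked 0 and 1. Free RNA was not corrected.

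Gates used raw UMIs: Dntt at 2 UMIs and 150 CPM, Pf4 at 2 UMIs and 300 CPM, 1 UMI each of Klf1 and Gata1, and 2000 CPM of the myeloid genes. The level of 1 check marker is not reported here. Counts were summed and scaled to CPM. Sums carry exact Poisson, ratios exact conditional binomial and shares exact Clopper-Pearson intervals at 95%, all for counting error only. No test was possible with 1 library per group. Genes with at least 100 UMIs over the cells compared were counted. All 10 members are named, with the 3 largest rises and 3 largest falls of the wider list and the 3 genes most like a member. The members and lists were chosen with earlier results of these data known. Alternatives covered cell filters, doublets, shared barcodes, edgeR 4.0.16 TMM factors, pseudocounts, thinning, weighting, gate and cycling thresholds. Ratios were tested on simulated data. Python 3.11.15, numpy 2.4.6 and scipy 1.17.1 were used.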

Additional observations from a re-analysis of the deposited data

How the results depend on the processing

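The median log2 ratio of the 10 genes, 0.11 between knockout and control, ran from 0.09 to 0.13 over 13 alternatives of cell filter, doublets, shared barcodes, scaling, pseudocount, depth and cell mix. For S-high against low cells it ran from -0.15 to -0.06 in control and from -0.07 to -0.03 in the knockout library over 9 alternatives each. The count of higher values by gate was 44 to 46 of 60 in place of 43, and 0 genes were past the fold over all cells at UMI minimums of 20 and 500 or at 1.5-fold. The median difference in the share of cells with a UMI was 1.45 points, and 0.88 points at 2500 UMIs per cell. Single genes moved more. Dnmt1 between the genotypes ran from 0.16 to 0.40, with 0.39 as the mean of single-cell CPM and 0.22 without cells under 1000 genes or over 5% mitochondrial UMIs, and Ezh2 ran from 0.10 to 0.26. Between S-high and low control cells Dnmt1 ran from 1.14 to 1.64 and Ezh2 from 1.11 to 1.71, and Tet1 was -0.37 with the cut at the pooled median. Depth limits Tet2, Bmi1 and the megakaryocyte and erythroid gates most. No paired analysis was possible because there is 1 library per group and the groups compared share fewer than 2 replicate numbers.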

Other observations

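The stromal libraries of the study, sorted for CD45-negative, Sca-1-positive, CD140a-positive cells of mice 6 to 8 weeks old, give the same genes in cells outside the blood lineage. Cells with hemoglobin UMIs under 5% and no Ptprc UMI numbered 447 in control and 275 in the knockout library. Stat5a stood at 43.5 CPM in these control cells and 59.9 CPM in these knockout library cells, and Stat5b at 54.7 and 49.9 CPM. The stromal cells of the knockout library thus still held Stat5 transcripts, and the ratios below are not read as an effect of STAT5 loss. Dnmt1 stood at 18.7 and 14.5 CPM, Ezh2 at 37.9 and 45.4 CPM and Dnmt3b at 11.2 and 11.8 CPM there. Kmt2a stood at 105.1 and 128.9 CPM, Dnmt3a at 46.0 and 57.2 CPM and Tet2 at 28.6 and 37.2 CPM. The interval of every one of the 10 log2 ratios between the stromal libraries held 0, from Dnmt1 at -0.36 (-1.34 to 0.56) to Asxl1 at 0.43 (-0.28 to 1.13). Only 4 of the 10 genes had at least 100 UMIs over these cells. Dnmt1 had 30 UMIs in control and 16 in the knockout library, and Asxl1 had 38 and 35. Such intervals are wide, so they do not show that the levels were alike. The KLS and stromal libraries differ in sort, age and depth, which cannot be told apart.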
